A study of Drosophila melanogaster with 6 samples.

Results

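The genes described are the head gap genes empty spiracles (ems), orthodenticle (listed under its symbol oc) and buttonhead (btd), with the paralogs of ems and btd, named E5 and Sp1. They were found by symbol in the RefSeq gene table of Drosophila melanogaster Release 6, and all 5 were present among the 17684 genes on the 6 chromosome arms that carried peaks. They lie at 3 loci: E5 and ems are neighbours on chromosome 3R, oc stands alone on the X, and btd and Sp1 are neighbours 1044 kb farther along the X. CUT&RUN, in which an antibody directs a nuclease to cut out chromatin around a histone mark, was used on wing imaginal discs, the epithelial sacs of the larva from which wing and thorax form. One genotype carried the transgene UASt-H3 K27M and so expressed the oncohistone in which methionine replaces lysine 27 of histone H3. The control carried UASt-H3 K27R and expressed H3 with arginine at that position. Each had 2 libraries for trimethylated lysine 27 of H3 (H3K27me3) and 1 with a non-specific IgG.

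Both genotypes also carry Act5C-GAL4, a ubiquitous actin driver, and alphaTub84B-GAL80ts, its temperature-sensitive repressor. Larvae grew at 25 °C to 44 h after egg laying, were shifted to 32 °C for 72 h of expression, and were staged to between 116 and 119 h. Discs were pooled, 20 per replicate. The control is itself a mutant histone whose position 27 cannot carry lysine methylation, no discs without a transgene are among the samples, and the labels name no change to the endogenous H3 genes. Every sample is labelled as third-instar wing disc, although the shared protocol also mentions eye-antennal discs, and the files analysed hold no expression level against which the tissue could be checked.

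H3K27me3 is written by Polycomb repressive complex 2 and marks genes of developmental regulators in tissues where they are kept silent. The head gap genes are transcription factors that divide the anterior head of the fly embryo into segments, and they are used again later. The ems gene encodes a homeodomain protein, related to the vertebrate EMX factors, that is also needed in the brain, the antennal region and the posterior spiracles. Its neighbour E5 encodes a homeodomain protein of the same family. The oc gene encodes a homeodomain factor of the OTX type, needed for the ocelli, the head vertex, photoreceptors and the anterior brain. The btd and Sp1 genes encode zinc finger factors of the Sp family, which act together in the formation and growth of the legs, and btd in addition in the embryonic head.

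Every one of the 5 genes lay wholly inside an H3K27me3 peak in H3K27R discs. The peaks are the authors' list of 1709 broad regions, 1 list that the labels attach to both H3K27R H3K27me3 libraries, so there is no value per replicate, no error between discs and no test. The count was 5 of 5 for overlap by at least 1 bp, against 7.22% of all 13922 protein-coding genes (1005 genes). It was 5 of 5 for a span lying in peaks from end to end, against 2.51% of protein-coding genes (350 genes). The 5 are not 5 separate observations, because E5 and ems share 1 peak, and btd and Sp1 share another. They were also chosen with earlier results of these data known, so the contrast with all protein-coding genes is a description and not independent evidence. Because the discs were pooled whole, a mark present in all cells and one present in a part of them cannot be told apart.

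The member genes differ in length, and each was set beside protein-coding genes of like length. Among genes within 1.5 times their length, 5.22% overlapped a peak for ems, 5.25% for btd and 6.85% for E5. For the longer oc and Sp1 the shares were 17.4% and 21.1%. The ems gene (gene ID 41697, chromosome 3R, 13901853 to 13904620) spans 2768 bp, and 2.11% of the 3833 protein-coding genes within 1.5 times its length were covered whole. The E5 gene (45396, chromosome 3R, 13867345 to 13874916) spans 7572 bp, with 1.81% of 1709 genes of like length covered whole. The oc gene (31802, chromosome X, 8630159 to 8650681) spans 20523 bp, with 3.00% of 833. The btd gene (31912, chromosome X, 9694186 to 9697558) spans 3373 bp, with 1.82% of 3293, and Sp1 (31913, chromosome X, 9729648 to 9756369) spans 26722 bp, with 2.60% of 693. Sp1 and oc were long for genes covered whole: of the 350 such genes, with a median length of 1655 bp, 12 were longer than Sp1 and 18 longer than oc.

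The peak over oc was the strongest of the 3, and the other peaks were wider. The authors' fold enrichment is the enrichment of a peak over the peak caller's background, and in the broad format of MACS2 it is an average over the whole peak and not a summit. It was 10.3 for the peak over oc, 8.43 for the peak over btd and Sp1, and 7.96 for the peak over ems and E5. The −log10 q-values were 71.9, 53.3 and 53.1 in the same order. The median peak of the list stood at 2.39-fold, and 68, 102 and 109 peaks had a larger value than those over oc, over btd and Sp1, and over ems and E5. Among genes covered whole the strength was ordinary, since the 350 such genes had a median of 7.96-fold, and 111 of them lay in a peak with a larger value than that over oc and 174 in one with a larger value than that over ems. The peaks were 50.9 kb wide over oc, 89.9 kb over btd and Sp1, and 84.6 kb over ems and E5, where the median peak measured 1058 bp. Only 11 peaks of the list were wider than that over btd and Sp1, and 15 were wider than that over ems and E5. The file gives 1 value per peak, so paralogs under the same peak have the same fold enrichment by construction and cannot be ranked against each other.

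**Figure D1:**
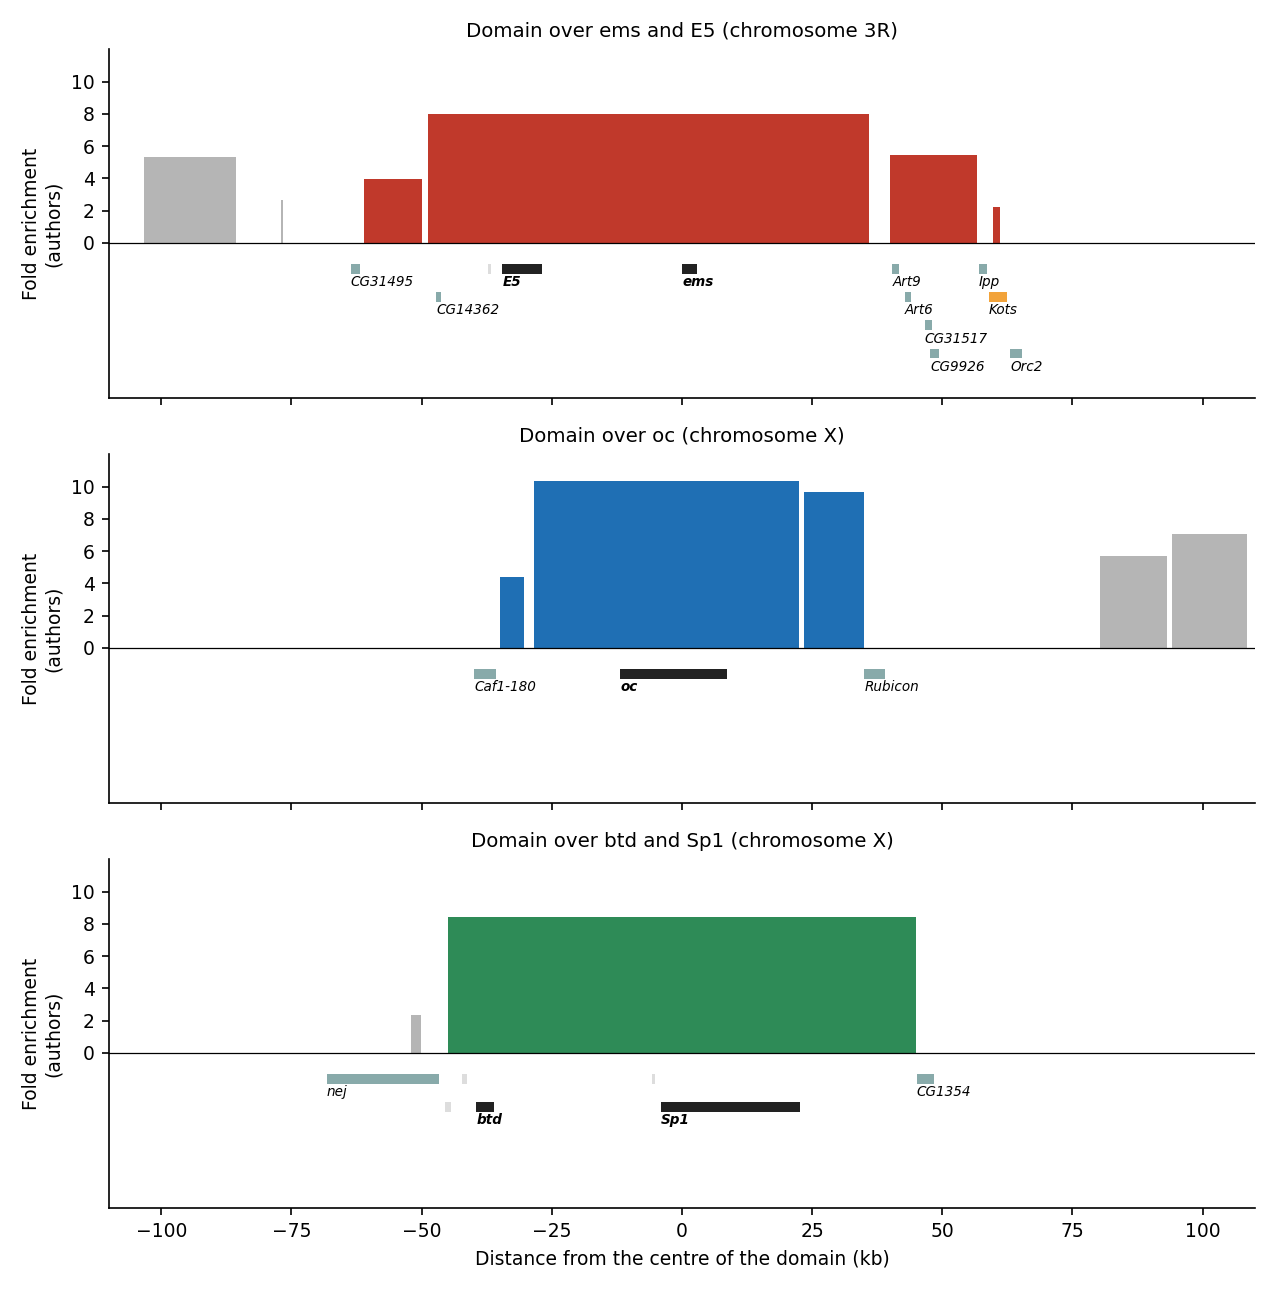
H3K27me3 peaks of H3K27R discs at the 3 loci, with the distance from the domain's centre in kb on the x axis and the authors' fold enrichment on the y axis; coloured blocks are the peaks of the domain, grey blocks are other peaks, and each block is flat because a peak has 1 value. Boxes underneath are the genes that overlap the domain and the nearest protein-coding gene on each side (black for members, orange for the gene on the upregulated list, pale grey for non-coding genes, blue-grey for the rest), and all 5 members lie inside the tallest block of their panel.

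At the ems locus, the mark extended well beyond both homeobox genes. Merging peaks across gaps of up to 5000 bp gave a domain of 122 kb (chromosome 3R, 13840795 to 13962843) made of 4 peaks, the 10th widest of 748 domains and the second widest of the 56 domains of at least 10 kb on 3R. Its central peak held E5 and ems, with 14.3 kb of marked DNA before E5 and 33.1 kb after ems. The 26.9 kb between the E5 and ems genes was covered over 100% and held no other protein-coding gene. To the side of E5 came an 11.1 kb peak of 3.96-fold with no annotated gene. To the side of ems came a 16.8 kb peak of 5.42-fold over Art9, Art6, CG31517 and CG9926, of which Art9 and Art6 belong to the arginine methyltransferase family, and then a 1228 bp peak of 2.22-fold. The outer peaks thus had smaller fold enrichments than the central one on both sides.

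With gaps of up to 5000 bp, the domain over ems and E5 was the one of the 3 that took in other protein-coding genes. This depended on the gap, since with 1000 bp or 2000 bp CG14362 was the 1 protein-coding gene in it besides the members. Of 7 protein-coding genes in it besides E5 and ems, 5 were covered whole (CG14362 and the 4 genes just named), Kots was covered over 35.5%, and Ipp, which encodes an inositol polyphosphate 1-phosphatase, lay in a gap between 2 peaks with no overlap. A non-coding gene, lncRNA:CR46239, was also covered whole. The nearest protein-coding genes outside were CG31495, 860 bp before the domain, and Orc2, a subunit of the origin recognition complex, 2041 bp after it, and neither overlapped a peak. Farther along on the E5 side, 24.6 kb from the domain, a 17.6 kb peak of 5.32-fold covered the tal genes (tal-1A, tal-2A, tal-3A and tal-AA), which share 1 span in the gene table and encode small peptides that act in leg segmentation.

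At the oc locus, the domain held oc and no other annotated gene. It was 69.8 kb wide (chromosome X, 8607120 to 8676903) and consisted of the 50.9 kb peak over oc, an 11.5 kb peak of 9.67-fold on one side and a 4.57 kb peak of 4.42-fold on the other. The marked DNA of the central peak ran 16.5 kb before the oc gene and 13.9 kb after it. The 9.67-fold of the 11.5 kb peak was close to that of the peak over oc itself, and no gene is annotated under it. The domain ended 159 bp short of Rubicon, a gene of the autophagy machinery, and 815 bp short of the gene for the large subunit of chromatin assembly factor 1, and neither gene overlapped a peak. Of the 24 protein-coding genes lying at least in part within 100 kb on either side, 1 overlapped a peak, the LIM homeodomain gene Lim1, 79.6 kb from the domain. On the Rubicon side 51.2% of the 100 kb was marked. That mark belonged to the domain over Lim1, which began 45.3 kb away with a peak of 5.67-fold and reached 7.46-fold over Lim1.

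At the btd locus, a single peak spanned both Sp genes. The domain was that 1 peak of 89.9 kb (chromosome X, 9688722 to 9778588), the 27th widest of all domains. It began 5.46 kb before btd and ended 22.2 kb after Sp1, and the 32.1 kb between btd and Sp1 was covered over 100% with no other protein-coding gene in it. Of 3 non-coding genes in the domain, lncRNA:CR44016 and lncRNA:CR43498 were covered whole and lncRNA:CR42657 over 51.9%. Of the 27 domains at least as wide as this one, itself included, 7 consisted of a single peak, against 61 of all 239 domains of at least 10 kb (25.5%). CG1354 began 153 bp beyond the end of the domain and had no peak.

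On the btd side, the nearest protein-coding gene was nej, which encodes the CBP acetyltransferase that acetylates lysine 27 of H3. The nej gene (chromosome X, 9665442 to 9687066) ended 1655 bp before the domain and carried a peak of its own, 1958 bp wide and 2.35-fold, over 9.05% of its span. That peak lay 5151 bp from the domain, just past the 5000 bp used for merging. Of the 16 protein-coding genes lying at least in part within 100 kb on either side of the btd and Sp1 domain, nej was the 1 that overlapped a peak. At the ems locus 4 of 21 such genes overlapped a peak, and they were the 4 tal genes.

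**Figure D2:**
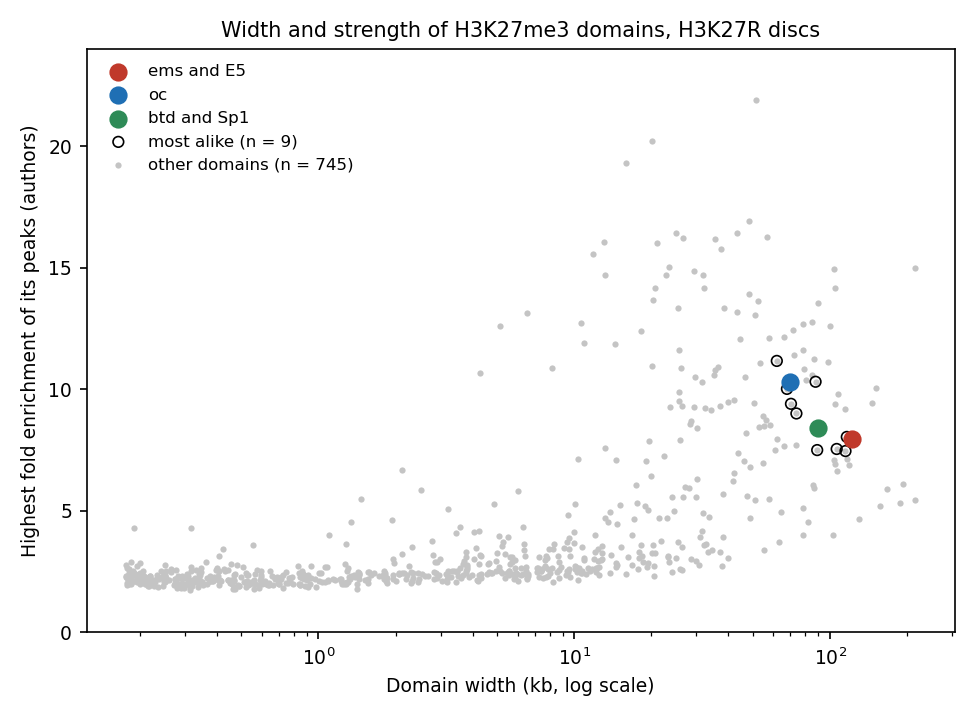
Each point is an H3K27me3 domain of H3K27R discs, with its width in kb on a log x axis and the highest fold enrichment of its peaks on the y axis; coloured points are the 3 domains over the members, open circles the 9 domains most alike to them and grey points the other domains. The 3 domains sit at widths of 69.8, 89.9 and 122 kb, toward the wide end, and at 10.3-, 8.43- and 7.96-fold, above the median of 6.23-fold for domains of at least 10 kb.

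Set against the 239 domains of at least 10 kb, the 3 domains were above the median in both width and strength. Those 239 domains had a median width of 29.4 kb and a median highest fold enrichment of 6.23. By highest fold enrichment the domain over oc was the 60th of them, that over btd and Sp1 the 89th and that over ems and E5 the 94th. Fold enrichment differed between arms, with a median of 5.26 over the 30 such domains on the X and 8.003 over the 56 on 3R. Within its own arm, oc was exceeded in fold enrichment by 2 of the 30 domains on the X, and btd and Sp1 by 7. The domain over ems and E5 was exceeded by 28 of the 56 on 3R. The copy number of the X in the pooled discs depends on the sex of the larvae, which the labels do not give, and its part in the values was not tested.

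Most of the marked DNA at these loci was outside annotated genes. The members themselves made up 8.47% of the domain over ems and E5, 29.4% of that over oc and 33.5% of that over btd and Sp1. Intergenic DNA made up 83.1% (101 kb) of the domain over ems and E5, 70.6% (49.3 kb) of that over oc and 64.2% (57.7 kb) of that over btd and Sp1. The median over the 239 wide domains was 44.5%, and 38, 57 and 66 of them had a larger intergenic share than these 3 in the same order. The ems gene, the shortest member, lay in a peak 30.6 times its own length, and btd in one 26.6 times its length. The figure was 11.2 for E5, 3.36 for Sp1 and 2.48 for oc.

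**Figure D3:**
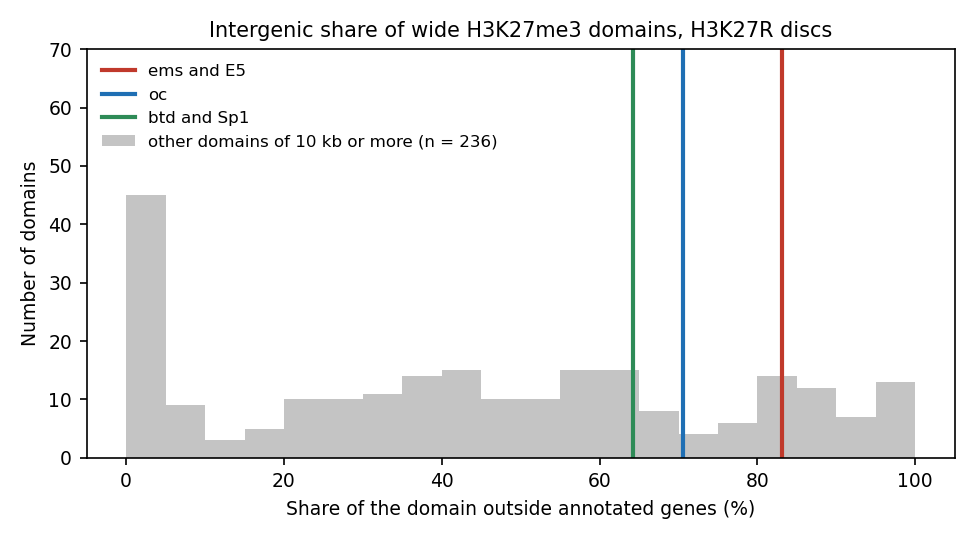
Histogram of the share of each wide domain (at least 10 kb) that lies outside annotated genes, in percent on the x axis, with the number of domains on the y axis; coloured lines mark the domains over the members and grey bars the other 236 domains. All 3 lines, at 83.1%, 70.6% and 64.2%, lie to the right of the median of 44.5%.

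The domains most alike to these 3 were found by width, highest fold enrichment and share under peaks. Likeness was the Euclidean distance over these 3 measures, each divided by its SD over the 239 domains. For ems and E5 they were the domains over sr, a tendon cell factor (116 kb, 8.05-fold), over Lim1 (115 kb, 7.46-fold), and over CG5888 (106 kb, 7.55-fold), a domain that also held dac, a leg and eye factor. For oc they were the domains over OdsH with unc-4, both homeobox genes (67.8 kb, 10.02-fold), over kn, a factor of the head and the wing (70.3 kb, 9.41-fold), and over lobo with dan and danr, antennal factors (61.9 kb, 11.2-fold). For btd and Sp1 they were the domains over the Hox gene Antp (89.0 kb, 7.50-fold), over peb, a zinc finger factor (73.8 kb, 9.01-fold), and over drm with sob and odd, zinc finger genes of the odd-skipped family (87.7 kb, 10.3-fold). Most of these 9 domains hold further protein-coding genes, and the factors are named as examples. The distances follow from the form of the mark alone and use no expression or function.

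None of the 5 genes was among those the authors list as upregulated with H3K27M. That list, which gives 148 intervals without expression values, held 0.941% of protein-coding genes (131 of 13922), so 0.047 of 5 genes would be listed at that share, and the count of 0 cannot show that these genes were listed less often than others. The upper end of the exact two-sided 95% interval for 0 of 5 is 52.2%, for counting error only. It treats the 5 genes as separate observations, although they lie at 3 loci. A gene that is not on the list may have been unchanged, changed below the authors' threshold or too low to test, and these cannot be told apart here.

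The domain over ems and E5 held a gene from that list when peaks were merged across gaps of up to 5000 bp, but not with 1000 bp or 2000 bp, where the domain ends before that gene. Kots (chromosome 3R, 13960712 to 13964174) lay 56.1 kb from ems and 85.8 kb from E5, at the far edge of the domain, and was partly covered by the weakest of its 4 peaks (−log10 q-value 2.79, against 53.1 for the peak over ems). The Kots peak was separated from the next one by the uncovered Ipp gene. Of the 239 wide domains, 6 held a listed gene, and they included the domain over sr, the one most alike to that over ems and E5. No listed gene lay in the domains over oc or over btd and Sp1. The nearest listed genes were CG33181 for oc, 113 kb from the gene and 90.1 kb from its domain, and CG32683 for Sp1 and btd, at 654 kb and 713 kb. H3K27me3 in H3K27M discs was not analysed here, so whether the mark at these loci changed with the oncohistone is not reported.

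Genes that work with the head gap genes were also mostly marked. Of 16 anterior head patterning genes, 12 overlapped a peak and 8 were covered whole, with a median fold enrichment of 14.3 over the 12. They included slp1 and slp2, forkhead factors of the head and trunk (13.9-fold), croc, a forkhead factor of the anterior head (16.2-fold), and Dfd, the Hox gene of the maxillary and mandibular segments (16.4-fold). Those without a peak were hb, hkb, tll and gt, which are gap genes of the trunk or of the ends of the embryo. The peaks over ems (7.96-fold), btd (8.43-fold) and oc (10.3-fold) were thus weaker than the median of the marked head patterning genes. For the other lists described below, that median was 13.6 for paired-class homeodomain genes and 8.80 for ocellar and eye-antennal network genes. It lay between 5.33 and 7.55 for the remaining lists, below all 3 of these peaks. The peak over oc was also above 8.80.

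The relatives of oc, btd and Sp1 by protein family were also counted. Of 16 homeodomain genes of the paired class, to which oc belongs, 15 overlapped a peak and 9 were covered whole. The list, drawn as paired-like in the figure, also takes in prd, gsb and gsb-n. Gsc and Pph13 shared a peak of 16.5-fold, Ptx1 lay in one of 8.21-fold, and PHDP had none. Of 8 other genes of the Sp and KLF zinc finger families, 2 overlapped a peak and none was covered whole. These were dar1 (59.5% covered, 7.26-fold), a factor of dendrite growth, and CG42741 (55.6%, 3.40-fold). Spps, an Sp family protein that binds Polycomb response elements, had no peak, nor did cbt, luna, Klf15, CG3065 or hkb. With btd and Sp1 covered whole at 8.43-fold, the marked genes of these families were 4 of 10.

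**Figure D4:**
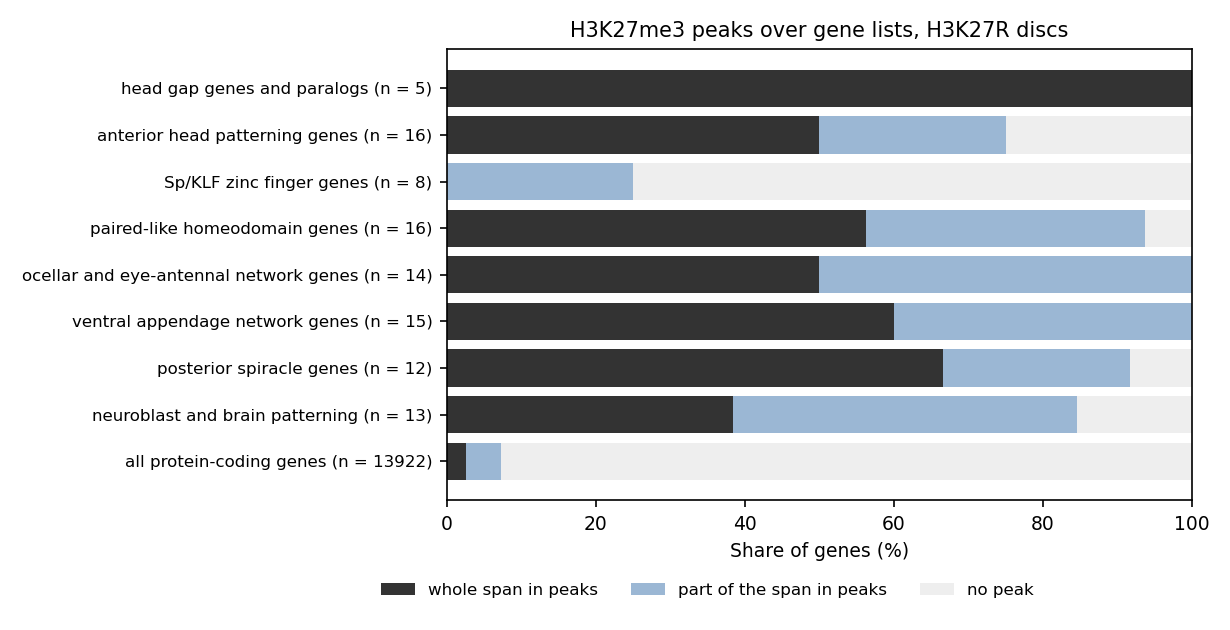
Share of the genes of each list whose span lay wholly in peaks (black), partly in peaks (blue) or outside peaks (pale), in percent, in H3K27R discs. The 5 members are covered whole, the Sp and KLF list has 2 of 8 genes partly covered, and among all protein-coding genes 7.22% overlap a peak.

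Genes of the networks in which oc, btd, Sp1 and ems act were marked in most cases. All 14 ocellar and eye-antennal network genes overlapped a peak, 7 of them whole, among them eya (10.5-fold) and Optix (13.7-fold), while hth was covered over 25.2% by peaks of up to 3.76-fold. All 15 ventral appendage genes overlapped a peak, 9 of them whole, among them Dll, the selector of the ventral appendages (12.4-fold), and dac (7.55-fold), while bab1 was covered over 3.07%. Of 12 posterior spiracle genes, 11 overlapped a peak and 8 were whole, among them Abd-B (15.0-fold), and crb, a gene of epithelial polarity, had none. Of 13 neuroblast and brain patterning genes, 11 overlapped a peak and 5 were whole, while ind and ro had none and vnd was covered over 4.31%. The marked genes of these lists also included the signalling genes wg (7.50-fold), hh (9.27-fold) and dpp (7.67-fold), and en (9.19-fold). A peak does not show that a gene was silent in these discs, since no expression level was available and the discs were pooled whole. The lists share genes, and many of their members were known to carry the mark when they were written. None of the 78 different genes on them was on the upregulated list, which held 0.941% of protein-coding genes. At that share, the absence of these genes cannot show that they were listed less often than others.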

How the data were processed

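Per the submitters' processing notes, Bowtie2 and MACS2 and the build dm6 were used. Their versions, the threshold, the background sample and how replicates were combined are not given in the sources used. Per the file layout, the deposited peak list gives a fold enrichment (a ratio), a −log10 p-value, a −log10 q-value and a score for each of 1709 peaks. The authors' score follows from the −log10 q-value and was left aside, as was the −log10 p-value. The authors' list of upregulated genes holds intervals, all 148 equal to the span of exactly 1 gene. It holds no measurement, and how it was called is not stated. Library depth is unknown.

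Covered lengths, distances and merged domains (gaps of up to 5000 bp) were computed in Python 3.11.15 with pandas 2.3.3 on RefSeq Release 6 genes, with 1-based coordinates, and checked on simulated intervals. The table gives no strand, so "before" and "after" follow increasing coordinates. Domains are named by their members or by the protein-coding gene with the longest covered length. Named genes are the members, the genes in and next to their domains, the 3 most alike domains each and examples from 7 gene lists. Other genes of a most-alike domain and the examples were picked with their values known. The lists named 80 different genes, all found, and 78 were counted, since btd and Sp1 are members and were left out. The 2 lists used hold no value per replicate, so no test was made. Members and lists were chosen with earlier results of these data known. Gene and protein sequences were not used here.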

Additional observations from a re-analysis of the deposited data

How the results depend on the processing

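No paired analysis was possible because the lists give no values by replicate, which also kept any replicate from being left out. The window around annotated starts was not run, for want of strands and start sites. The counts of members overlapping a peak and covered whole stayed at 5 of 5 when peaks under a −log10 q-value of 10 or under the median fold enrichment were dropped and, for overlap, with at least 50% of the span covered or the span widened by 1000 bp. Domain width depended on the merging gap by construction. The domain over ems and E5 (122 kb) measured 84.6 kb with gaps of up to 1000 bp and 96.9 kb with 2000 bp, each with 1 protein-coding gene besides the members in place of 7 and without Kots. It measured 175 kb with 20000 bp, where it took in the peak over the tal genes, and 118 kb with the stricter peaks, which drop the peak over Kots. The domain over oc (69.8 kb) measured 63.2 kb with 1000 bp. The domain over btd and Sp1 (89.9 kb) measured 97.0 kb with 10000 bp and with 20000 bp, where it took in the peak over nej. The fold enrichment averaged over peak length was 7.13 for ems and E5 and 9.81 for oc, in place of the highest values of 7.96 and 10.3. Counting a listed gene anywhere in the domain gave 2 members (ems and E5, both through Kots) in place of 0. Fold enrichment is 1 value per peak in a list shared by both libraries, so differences between the 3 loci carry no error.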

Other observations

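Other neighbouring relatives on the gene lists gave a comparison for the paired loci; these pairs were chosen after the values were seen, and no test was made. Of 5 such pairs, 3 resembled ems with E5 and btd with Sp1, with both genes and the DNA between them wholly inside 1 peak: slp1 and slp2 (9.74 kb apart, 13.9-fold), gsb and gsb-n (9.63 kb apart, 16.9-fold) and B-H1 and B-H2 (73.3 kb apart, 6.64-fold). The distances between ems and E5 (26.9 kb) and between btd and Sp1 (32.1 kb) and their fold enrichments (7.96 and 8.43) fell between those of gsb with gsb-n and of B-H1 with B-H2. In the other 2 pairs no peak touched both genes. Of these, salm and salr had peaks of 4.83-fold and 5.33-fold with 91.5% of the 60.7 kb between them marked. The bab genes differed more from each other, with 3.07% of bab1 and 44.4% of bab2 covered and 78.4% of the 39.3 kb between them marked. No gene of any of these pairs was on the upregulated list. With 0.941% of protein-coding genes on it, that cannot show that these few genes were listed less often than others.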
